A study of Homo sapiens with 9 samples.

Results

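The transcriptome of solvent-treated HepG2 cells, the baseline of a compound study, was described from 3 of the 9 sequenced libraries. Those 3, called DMSO 1, DMSO 2 and DMSO 3, were chosen by their label: HepG2 cells, a line derived from a human liver carcinoma, given 0.1% DMSO as the vehicle. No compound-treated library entered any value below. The table held 60612 genes, each with an estimated count and an FPKM value per library, where FPKM is the fragment number scaled to gene length (per kilobase) and to library size. Because FPKM corrects for length, levels of different genes were compared on that scale alone. Nothing in the labels states that the 3 libraries came from separate cultures, so the spread between them may be technical. Values are FPKM in DMSO 1, 2 and 3 in that order, or mean ± SD over n = 3, unless another quantity is named.

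Hepatocytes make most of the plasma proteins, package lipid into lipoproteins, clear ammonia through the urea cycle, and oxidise and conjugate foreign compounds. The hepatocyte programme is held by a network of nuclear factors that includes HNF4A, the FOXA proteins and CEBPA. Fetal liver and many liver tumours also make alpha-fetoprotein, IGF2 and glypican-3. The adult liver largely silences alpha-fetoprotein and glypican-3. HepG2 cells are widely used as a hepatocyte stand-in that divides in culture, and they are known for low activity of many drug-metabolising enzymes and for constitutively active β-catenin.

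The defining markers of the labelled cell type were all detected. *ALB*, which encodes albumin, was listed at 1609, 1644 and 1605 FPKM and ranked 22nd of all genes. *AFP*, encoding alpha-fetoprotein, its fetal counterpart, followed at 1283, 1339.7 and 1298 FPKM, rank 23. *APOA1*, the main protein of high-density lipoprotein, stood at 1139.8, 1181 and 1162 FPKM, rank 26. All 3 secretory markers thus lay in a narrow band with almost no scatter between libraries. *HNF4A*, a nuclear receptor that drives hepatocyte genes, was far lower at 9.05, 7.95 and 7.99 FPKM, rank 4058. *MKI67*, which encodes the proliferation antigen Ki-67, had 11.5, 18.3 and 15.1 FPKM, rank 2439. It was lowest in DMSO 1 and highest in DMSO 2, and its spread was the widest of the 5 markers.

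**Figure D1:**
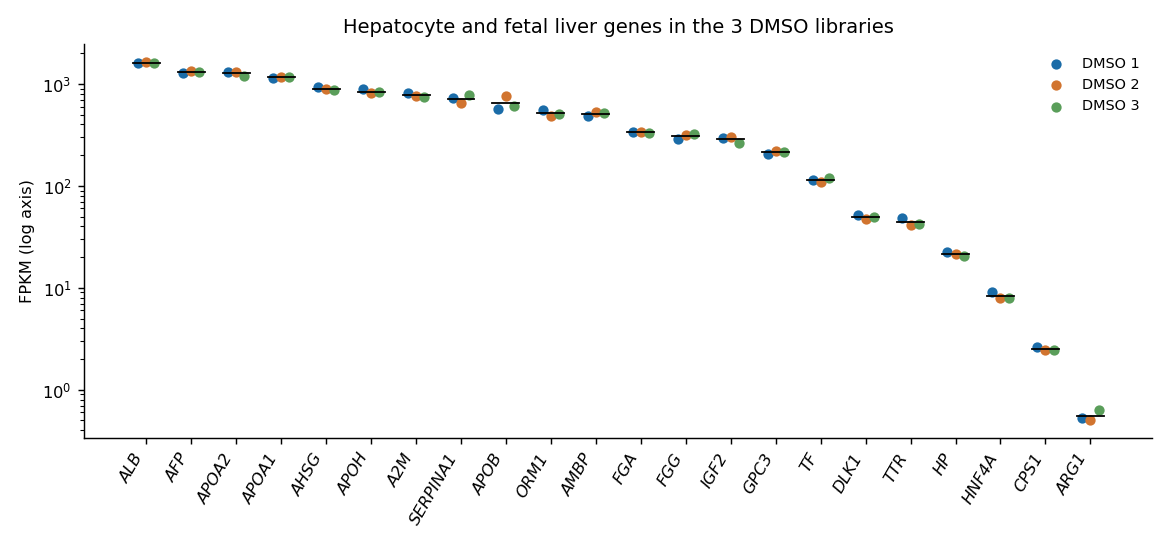
FPKM of 22 hepatocyte and fetal liver genes (log axis) in each of the 3 DMSO libraries; each point is a library and each bar the mean of the 3. *ALB*, *AFP*, *APOA2* and *APOA1* sit above 1000 FPKM, *HNF4A* near 8.33 FPKM, and *ARG1* below 1 FPKM.

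Depth was 87122734 counts in DMSO 1, 107538450 in DMSO 2 and 105857549 in DMSO 3, and 23192 to 24256 genes had a count above 0. A gene was called detected when it reached 1 FPKM in every library. This held for 10691 genes, 17.6% of the table, and for 9488 of the 19673 genes with a protein-coding transcript, 48.2% of them; these shares are the background for the gene lists below. The median level of a detected gene was 5.80 FPKM, 291 genes reached 100 FPKM in every library, and 28 reached 1000. A count of 0 in all 3 libraries was listed for 33056 genes, of which 4329 were coding. Mitochondrially encoded genes took 12.6% to 14.1% of the counts but 39.6% to 42.1% of the summed FPKM, and they filled 19 of the 30 highest ranks. Those 30 genes held 46.8% ± 1.26 of the summed FPKM, against 18.6% ± 0.276 for the 30 highest nuclear genes.

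The most abundant nuclear transcript was *FTL*, the light chain of the iron store ferritin, with 10711, 10191 and 10216 FPKM. *EEF1A1*, the elongation factor that brings aminoacyl-tRNA to the ribosome, was next among functional nuclear genes at 1736, 1714 and 1750.3 FPKM, directly ahead of *ALB*. A nuclear pseudogene of mitochondrial origin, *MTATP6P1*, lay between them at 2739 ± 362 FPKM, a value that may hold reads of *MT-ATP6*, since these near-identical sequences cannot be told apart here. Below *APOA1* came the glycolytic enzyme *GAPDH* (1157 ± 141 FPKM), the actin-binding peptide *TMSB10* (1133 ± 48.5 FPKM), *RPS12* of the small ribosomal subunit (1027 ± 111 FPKM) and the chaperone *HSP90AB1* (1006 ± 12.7 FPKM). Among the 60 highest nuclear genes, 16 were secreted liver proteins of the lists described next and 15 were ribosomal protein genes.

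Most classes of plasma protein were present, and a few of their members reached very high levels. Of 95 genes in 5 lists (the albumin family, apolipoproteins, carriers and protease inhibitors, clotting factors, and complement), 75 were detected. In the albumin family the split was complete: *ALB* and *AFP* were abundant, while *AFM* (afamin, a vitamin E carrier) and *GC* (the vitamin D binding protein) stayed below 1 FPKM in every library, at 0.147 ± 0.0407 and 0.0768 ± 0.0567 FPKM. Apolipoproteins were detected in 15 of 17 cases. *APOA2*, the other main protein of high-density lipoprotein, had 1303, 1314 and 1196 FPKM, *APOH*, a phospholipid-binding plasma protein, 887, 809 and 824 FPKM, and *APOB*, the backbone of low-density lipoprotein, 568, 763 and 604 FPKM. *APOE* (424 ± 1.2 FPKM), a ligand of lipoprotein receptors, varied least in this group, whereas *APOB* was highest in DMSO 2. *LPA*, which encodes apolipoprotein(a), was listed at 0 in all libraries.

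Carriers and protease inhibitors were detected in 25 of 30 cases and 12 of them reached 100 FPKM in every library. *AHSG*, encoding fetuin-A, led with 925, 897 and 879 FPKM, ahead of the broad protease inhibitor *A2M* with 809, 756 and 752 FPKM and of *SERPINA1*, the α1-antitrypsin gene, with 726, 650.3 and 772 FPKM. *ORM1*, an acute-phase glycoprotein, followed at 556, 482 and 505 FPKM, but it is nearly identical to *ORM2*, so how reads were divided between them is uncertain. *TF* and *TTR*, the carriers of iron and of thyroid hormone, were lower at 115 ± 4.45 and 44.1 ± 3.89 FPKM. Acute-phase genes did not share a level: *HP*, encoding the haemoglobin scavenger haptoglobin, had 21.5 ± 1.08 FPKM, *SAA1* 0.116 ± 0.0751 FPKM, and *CRP* was listed at 0. *SERPINA3*, an acute-phase inhibitor of chymotrypsin-like proteases, had 80.3, 122 and 190.2 FPKM, with no pair of libraries close to each other. An overlapping gene on the same strand, AL049839, had 300, 746 and 356 CPM (counts scaled to library size). In CPM *SERPINA3* differed by 2.37-fold between libraries and its sum with AL049839 by 1.91-fold. How reads were divided between them was not tested.

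Of 23 clotting and fibrinolysis genes, 17 were detected. The 3 fibrinogen chains had the highest means of the list, with *FGA* at 339.5, 336 and 334, *FGG* at 289, 314 and 319, and *FGB* at 175, 168 and 173 FPKM. *SERPIND1*, heparin cofactor II, had 158 ± 11.7 FPKM and *F2*, prothrombin, 121 ± 4.18 FPKM. The vitamin K-dependent factors were otherwise uneven: *F10* was at 17.1 ± 0.3 FPKM, *F7* at 1.65, 5.28 and 4.82 FPKM, lowest in DMSO 1, and *F9* was listed at 0. Of 21 complement genes, 16 were detected. *C3*, the central component, had 259.6, 260.5 and 254 FPKM, and *C4A* and *C4B*, near-identical copies whose reads cannot be assigned with certainty, had 44.9 ± 1.82 and 45.1 ± 1.64 FPKM. *CFI*, the serine protease that inactivates C3b and C4b, was at 40.9 ± 3.19 FPKM. *C9*, the last component of the membrane attack complex, and the lectin *FCN3* were listed at 0.

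Sequence just upstream of *ALB* and *AFP* is given because these neighbours on chromosome 4 had the highest mean FPKM of all list members. Motifs were searched on both strands of the 250 bases before each RefSeq gene start (GRCh38.p14); the table held 52 promoters of the 95 secreted-protein genes and 22114 in all. The CCAAT box (CCAAT) was held by 38.5% of the 52 and by 33.4% of all promoters. The TATA box (TATAAA) was held by 17.3% against 11.8%, with 12.2% of the 41 promoters of detected genes and 36.4% of the 11 of genes not detected. The FOXA core (TGTTTAC) was held by 6 of the 52 (11.5%) against 3.09%, and the HNF4 element (CAAAGTCCA) by 2 (3.85%) against 0.289%. In 26 promoters of the cytochrome P450 and other phase 1 genes described below, each of these 2 motifs was held by 11.5%. The GC box (GGGCGG) was held by 15.4% of the 52 against 40.9%. Across coding genes the GC box was held by 71.9% of the promoters of detected genes and by 43.3% of those of genes not detected. The 140 bases before the start, 5′ to 3′ on the coding strand, are at chr4:73404147-73404286 for *ALB* and chr4:73436081-73436220 for *AFP*, both on the plus strand. Capitals mark TATAAA and CCAAT or their reverse complements TTTATA and ATTGG.
ALB: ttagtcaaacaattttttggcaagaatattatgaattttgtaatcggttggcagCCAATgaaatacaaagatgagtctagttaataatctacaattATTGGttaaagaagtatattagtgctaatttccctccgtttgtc
AFP: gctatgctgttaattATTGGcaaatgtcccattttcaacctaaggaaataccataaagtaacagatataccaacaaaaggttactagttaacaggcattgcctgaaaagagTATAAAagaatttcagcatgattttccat
In *ALB* a CCAAT begins 86 and an ATTGG 44 bases before the start. In *AFP* a TATAAA begins 29 and an ATTGG 125 bases before it. A match is a run of letters and was not tested as a binding site.

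Fetal liver and liver tumour genes were expressed in part: 19 of 30 oncofetal genes were detected. After *AFP*, the highest were *AKR1B10*, an aldo-keto reductase raised in liver cancer, with 304, 285 and 311 FPKM, the growth factor *IGF2* with 292, 305 and 264 FPKM, and *GPC3*, the cell-surface proteoglycan glypican-3, with 207, 218 and 216 FPKM. Their library values overlapped only for *AKR1B10* and *IGF2*. The imprinted genes *DLK1* and *PEG10* had 49.5 ± 1.88 and 66.2 ± 8.72 FPKM, and the fetal RNA-binding proteins *IGF2BP1* and *LIN28B* had 36.2 ± 1.55 and 18.1 ± 0.927 FPKM. *H19*, the imprinted non-coding RNA next to *IGF2*, did not share its level and was at 0.61, 0.295 and 0.246 FPKM. *TERT*, the catalytic subunit of telomerase, lay just under 1 FPKM in every library (0.883 ± 0.0687 FPKM). The stem-cell factor *SALL4* was at 0.0983 ± 0.0366 FPKM, and the globin genes *HBG1* and *HBZ* and the globin chaperone *AHSP* were listed at 0. *ALB* exceeded *AFP* in 3 of 3 libraries, by 0.31 ± 0.016 on the log2 scale, a 1.24-fold difference that was larger than the spread between libraries.

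Of 35 liver transcription factors, none of which reached 100 FPKM, 24 were detected, 4 stayed below 1 FPKM in all libraries and 7 crossed that level between libraries. *XBP1*, which expands the secretory apparatus, was the highest with 90.9, 91.1 and 98 FPKM. It was followed by *NR0B2*, the bile acid-induced repressor SHP, with 55.5, 45.7 and 46.3 FPKM, by *CEBPA*, a driver of hepatocyte differentiation, with 45.7, 46.8 and 47.6 FPKM, and by the bile acid receptor *NR1H4* with 20.4, 19.9 and 20.1 FPKM. The ranges of *NR0B2* and *CEBPA* overlapped. The forkhead factors *FOXA1* and *FOXA3* stood at 12.9 ± 0.658 and 13.6 ± 0.666 FPKM, while *FOXA2* had 13.7, 12.9 and 5.24 FPKM, low only in DMSO 3. Among the xenobiotic receptors, *AHR* was at 2.2 ± 0.637 and *NR1I2* (PXR) at 2.19 ± 0.183 FPKM, while *NR1I3* (CAR) was at 0.0698 ± 0.0216 FPKM.

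**Figure D2:**
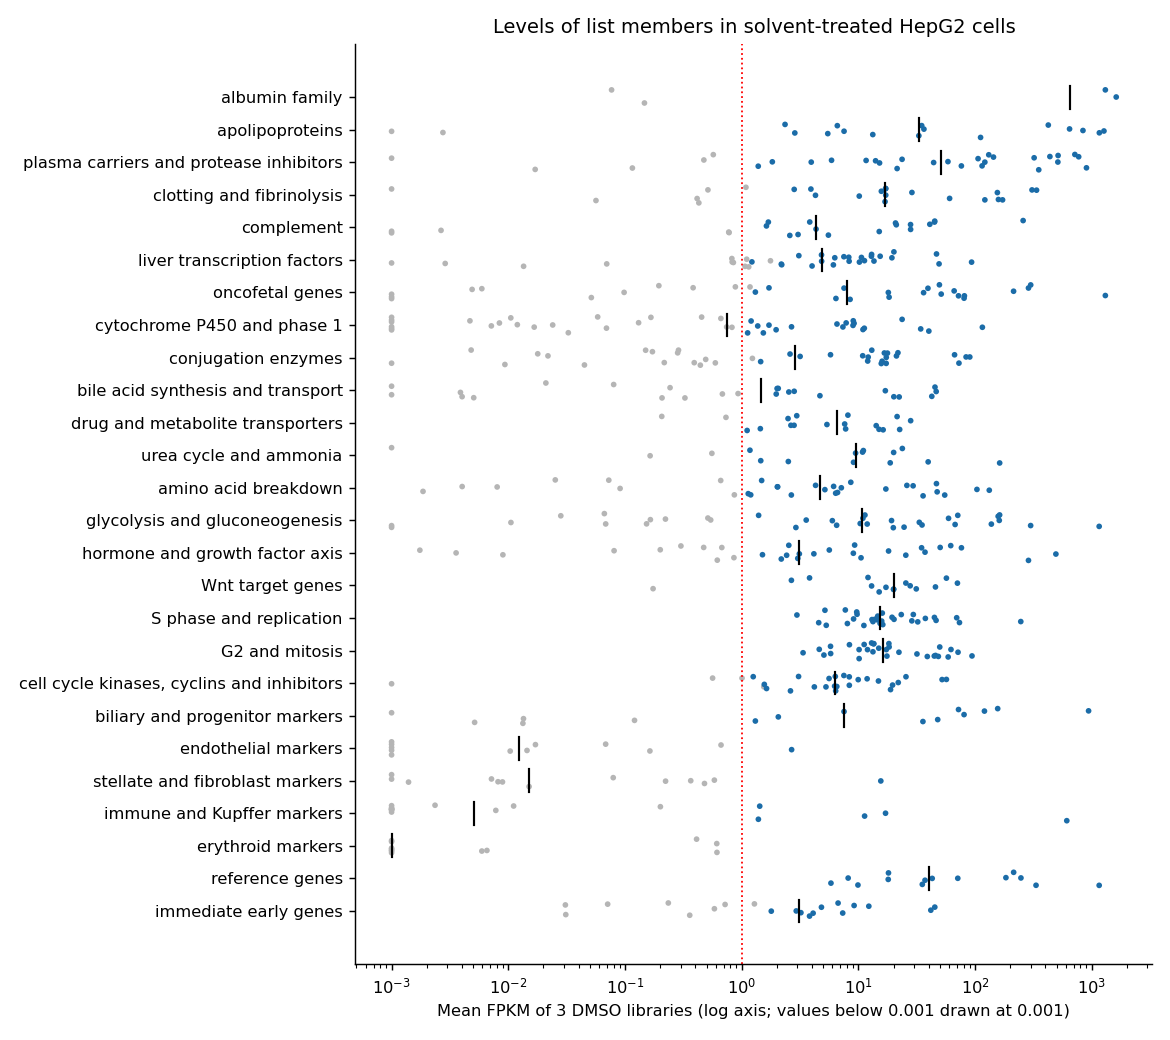
Mean FPKM over the 3 DMSO libraries (log axis) of each list member found in the table, with 1 row per gene list; blue points are detected genes (at least 1 FPKM in every library), grey points are not, black ticks are list medians and the dotted line is 1 FPKM. Every S phase and mitotic gene lies above the line, while the medians of the endothelial, stellate, immune and erythroid rows lie below 0.1 FPKM.

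Several drug-oxidising enzymes of adult liver were listed at or near 0. Of 41 cytochrome P450 and other phase 1 genes 19 were detected, or 46.3%, close to the 48.2% background. *CYP1A2*, *CYP2A6*, *CYP2C19* and *CYP4A11* were listed at 0 in every library. *CYP3A4*, the main drug-oxidising P450 of adult liver, had 0.0634, 0.00868 and 0 FPKM, whereas its fetal relative *CYP3A7* had 1.47, 1.68 and 1.99 FPKM; the 2 are close copies, so reads may be shared. What was high in this list was of another kind: the carboxylesterase *CES1* at 115 ± 5.59 FPKM, the formaldehyde-clearing dehydrogenase *ADH5* at 40.2 ± 5.2 FPKM, the sterol demethylase *CYP51A1* at 34.2 ± 2.09 FPKM and *POR*, the reductase that feeds electrons to P450 enzymes, at 23.7 ± 0.747 FPKM.

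Conjugating enzymes were detected in 20 of 36 cases (55.6%). *SULT2A1*, which sulfates steroids and bile acids, led with 90.1, 89.5 and 90.7 FPKM, followed by the glutathione transferases *GSTA1* with 80.4, 86.2 and 84.6 FPKM and *GSTO1* with 66.2, 77 and 75 FPKM, and by the epoxide hydrolase *EPHX1* with 72.5, 64.6 and 63 FPKM. *GSTA1* has a close copy, *GSTA2*, so its level is uncertain. *GSTP1*, the class pi enzyme that many tumours express, was at 0.393, 0.0159 and 0.0421 FPKM, below *GSTA1* in 3 of 3 libraries. *GSTT2* was listed at 0. Glucuronidating enzymes differed widely. *UGT2B4*, *UGT2B10* and *UGT2B7* had 21.2 ± 0.583, 16.7 ± 0.935 and 12 ± 0.304 FPKM, *UGT2B11* had 1.45 ± 0.36 FPKM, and *UGT2B15* and *UGT2B17* were listed at 0 in 2 libraries and at 0.0281 and 0.0144 FPKM in DMSO 3. *UGT1A1*, which conjugates bilirubin, had 0.492 ± 0.14 FPKM. The genes of the *UGT1A* locus share their last exons, which makes their separate values uncertain.

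Bile acid genes were detected in 12 of 24 cases (50.0%), again near the background. The receptor *FGFR4*, which represses bile acid synthesis, had 47.4, 46.3 and 45.6 FPKM and its co-receptor *KLB* 17 ± 0.412 FPKM. Close to *FGFR4* were the canalicular export pump *ABCC2* at 45.3 ± 1.6 FPKM and the alternative-pathway enzyme *CYP27A1* at 42.6 ± 0.803 FPKM, whereas *CYP7A1*, the rate-limiting enzyme of the classic pathway, was at 0.125, 0.0565 and 0.0585 FPKM. The basolateral exporter subunit *SLC51B* had 22.4 ± 0.662 FPKM. Uptake carriers were uneven: *SLCO2B1* had 2.85, 1.77 and 1.55 FPKM, *SLCO1B3* had 0.289, 0.197 and 0.244 FPKM, *SLC10A1* (NTCP) was listed at 0 in 2 libraries and at 0.0121 FPKM in DMSO 3, and *SLCO1B1* was listed at 0 in all 3, as was the hormone *FGF19*. Among 18 other transporters 16 were detected, led by the lactate carrier *SLC16A1* at 28 ± 0.367 FPKM, and the glucose transporters *SLC2A3* at 22.6 ± 1.61 and *SLC2A1* at 21.5 ± 4.32 FPKM. The drug efflux pump *ABCB1* had 16.3 ± 0.559 FPKM.

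In nitrogen metabolism, 12 of 15 urea cycle and ammonia genes were detected, but the enzymes within the cycle were unequal. *GLUD1*, which releases ammonia from glutamate, had 163, 162 and 162 FPKM and *ASS1*, which makes argininosuccinate, 40.9, 38.8 and 39.1 FPKM. *CPS1*, the entry enzyme of the cycle, had 2.61, 2.46 and 2.46 FPKM, and the next enzyme, *OTC*, 0.308, 0.0672 and 0.118 FPKM. The citrin carrier *SLC25A13* (23.8 ± 0.87 FPKM) and glutamine synthetase *GLUL* (20.1 ± 4.42 FPKM) completed the highest 4, and the ammonia channel gene *RHCG* was listed at 0. Amino acid breakdown genes were detected in 22 of 30 cases. The tyrosine-degrading enzyme *HPD* led at 132 ± 3.43 FPKM, ahead of *AHCY* of the methionine cycle at 104 ± 1.52 FPKM, *GOT1*, the cytosolic aspartate aminotransferase, at 54.9 ± 0.696 FPKM, and *MAT2A*, which makes S-adenosylmethionine, at 47.3 ± 1.19 FPKM.

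Carbohydrate genes were detected in 23 of 34 cases, and glycolytic enzymes held the highest ranks. After *GAPDH* came *ENO1* at 299 ± 5.43, *PGAM1* at 162 ± 3.95 and *LDHA* at 161 ± 7.47 FPKM, enzymes of lower glycolysis and lactate production. *G6PC1*, which releases free glucose, was at 0.0666 ± 0.0181 FPKM. *HK3* and the liver glycogen synthase *GYS2* were listed at 0.

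Related genes were set side by side in pairs, and the second gene was the more abundant in most of them. Some pairs are a liver-type gene and a form of other tissues, and some an adult and a fetal gene. The PEP carboxykinases differ by cell compartment and the glutathione transferases by class. Pyruvate kinase showed it plainly: the liver gene *PKLR* had 6.44, 6.89 and 6.21 FPKM and the general gene *PKM* 67.8, 69.7 and 64.7 FPKM, a log2 ratio of -3.37 ± 0.0303. Arginase went the same way, with *ARG1* at 0.527, 0.503 and 0.636 FPKM and the mitochondrial *ARG2* at 19.4, 16.2 and 20.7 FPKM, a log2 ratio of -5.08 ± 0.108. The log2 ratio was -7.73 ± 0.313 for the cytosolic and mitochondrial PEP carboxykinases *PCK1* and *PCK2*. Smaller gaps, still in the same direction in all 3 libraries, were seen for the glucose transporters *SLC2A2* and *SLC2A1* (-1.48 ± 0.433), the glycogen phosphorylases *PYGL* and *PYGB* (-0.79 ± 0.048) and the methionine adenosyltransferases *MAT1A* and *MAT2A* (-0.69 ± 0.092). These SDs cover the libraries and not the length used: with CPM and with the longest transcript as length, the log2 ratio was -4.81 and -4.82 for *PKLR* and *PKM*, and -2.43 and -2.24 for *SLC2A2* and *SLC2A1*. For *PCK1* and *PCK2* it was -6.99 with CPM, and for *MAT1A* and *MAT2A* it was -1.25 with the longest transcript. The longest transcript narrowed the gap to -0.32 for *PYGL* and *PYGB* and to -4.68 for *ARG1* and *ARG2*. Adding a pseudocount of 1 FPKM, which shrinks ratios of low genes by construction, gave -3.66 for *ARG1* and *ARG2* and -4.95 for *PCK1* and *PCK2*. *IGF1* had 12 counts against 640100 for *IGF2*; since *IGF1* was at 0 in 2 libraries, no ratio was formed. The first gene of the pair was the higher one in 2 of the 11 pairs described, *ALB* over *AFP* and *GSTA1* over *GSTP1*.

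**Figure D3:**
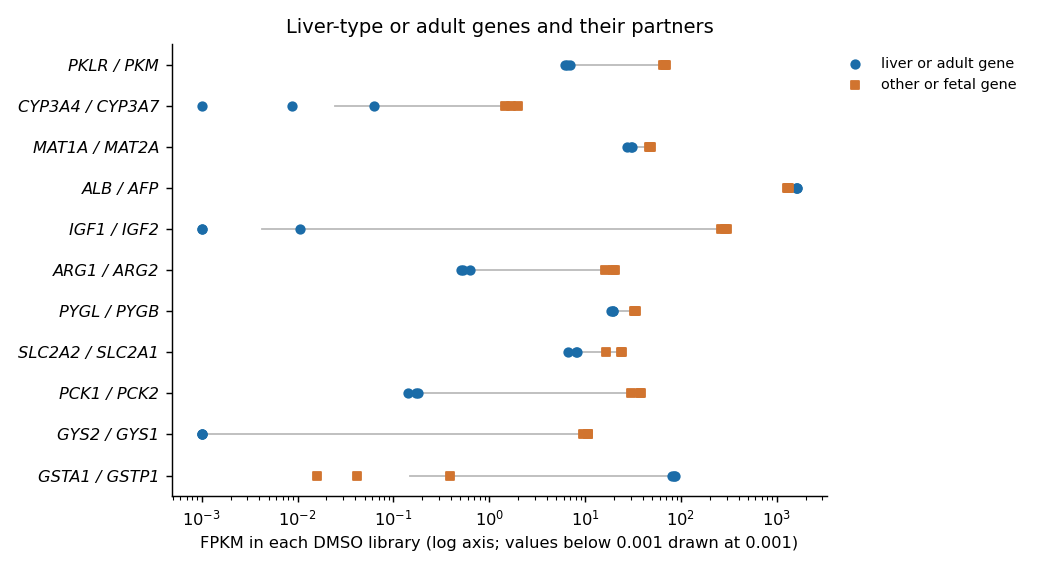
FPKM (log axis) of 11 gene pairs in each of the 3 DMSO libraries. Blue circles are the liver-type, adult, cytosolic (*PCK1*) or class alpha (*GSTA1*) gene, orange squares its partner, and grey lines join the means. In 9 pairs the squares lie to the right of the circles, and only *ALB* and *GSTA1* lie above their partners.

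Genes of hormone and growth factor pathways were detected in 20 of 30 cases. *AGT*, the precursor of angiotensin, had 493 ± 33.6 FPKM, and the asialoglycoprotein receptor subunits *ASGR2* and *ASGR1*, which clear desialylated proteins, had 76.4 ± 1.4 and 61.8 ± 2.26 FPKM. *IGF1*, *GHR* (the growth hormone receptor) and *FGF21* were each listed at 0 in 2 of the 3 libraries. Targets of Wnt signalling were detected in 14 of 15 cases. *NOTUM*, a secreted Wnt deacylase, had 70.4, 70.4 and 70.9 FPKM, *CCND1*, encoding cyclin D1, 54.4, 60.6 and 55.4 FPKM, the transcription factor *SP5* 46.7, 44.3 and 46.3 FPKM and the Wnt antagonist *DKK1* 30.4, 30.5 and 33.1 FPKM. Only *LEF1*, a partner of β-catenin, stayed below 1 FPKM, at 0.174 ± 0.0305 FPKM.

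Proliferation genes were detected without exception: all 31 S phase genes and all 30 genes of G2 and mitosis reached 1 FPKM in every library. Of these, 21 and 23 reached 10 FPKM in every library. *PCNA*, the sliding clamp of DNA polymerases, led the S phase list with 240.1, 239 and 259.9 FPKM. The helicase subunit *MCM3* had 70.3, 69.5 and 80.6 FPKM, thymidylate synthase *TYMS* 75.5, 73.6 and 59.6 FPKM, and *MCM7* 46, 44.4 and 48.6 FPKM. Among mitotic genes the spindle assembly factor *TPX2* was highest with 98.5, 93.1 and 90.6 FPKM, followed by the transcription factor *MYBL2* with 75.7, 68.6 and 70.05 FPKM, topoisomerase *TOP2A* with 60.6, 66.9 and 58.9 FPKM, and cyclin B1, *CCNB1*, with 58.5, 59.9 and 58 FPKM. The ranges of *TOP2A* and *CCNB1* overlapped, and so did those of *MCM3*, *TYMS* and *MYBL2*. *MKI67*, the usual marker, had a mean of 14.9 FPKM beside the list's median of 16.1 FPKM, with DMSO 2 above that median and the other libraries below it. In bulk RNA such as this, fewer cycling cells and less RNA per cycling cell cannot be told apart.

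Of 28 cyclins, cyclin-dependent kinases and their inhibitors, 24 were detected. *CCND1* and its partner *CDK4* (52.1 ± 0.926 FPKM) stood highest, followed by *CCNG1*, a p53 target, at 25.6 ± 1.32 FPKM and *E2F4*, a partner of the pocket proteins, at 22 ± 2.3 FPKM. *CDKN1C*, an imprinted inhibitor, was listed at 0. *CDKN1A*, the p53-induced inhibitor p21, had 25.6, 5.94 and 25 FPKM, and the mitotic kinase *AURKA* 62.2, 28.1 and 59.1 FPKM. Both were low in DMSO 2 alone. In the same library *RRM2*, the small subunit of ribonucleotide reductase, was high: 11.1, 24.2 and 12.2 FPKM.

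**Figure D4:**
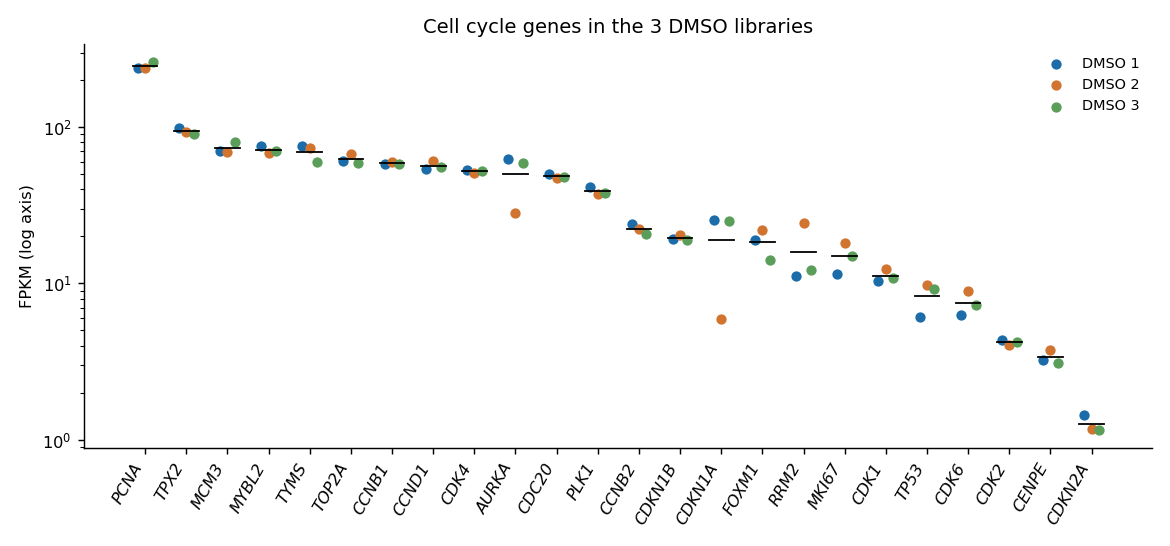
FPKM of 24 cell cycle genes (log axis) in each of the 3 DMSO libraries; each point is a library and each bar the mean of the 3. *PCNA* lies above 200 FPKM, most mitotic genes lie between 10 and 100 FPKM, and *AURKA*, *CDKN1A* and *RRM2* each have DMSO 2 apart from the other libraries.

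Promoters of the mitotic genes are shown because 2 short elements recur in them, the CCAAT box (CCAAT, bound by NF-Y) and the cell cycle homology region (TTTGAA). Searched on both strands of the 250 bases before the start, CCAAT was held by 84.2% of the 19 mitotic promoters in the RefSeq table, by 61.9% of the 21 S phase promoters and by 33.4% of all promoters. TTTGAA was held by 57.9%, 4.76% and 14.0% of them, respectively, and by 25% of the secreted-protein promoters. No test was made of these shares. The 140 bases before the start (GRCh38.p14, 5′ to 3′ on the coding strand) are at chr15:59105006-59105145 (plus strand) for *CCNB2*, chr16:23678749-23678888 (plus strand) for *PLK1* and chr10:128126424-128126563 (minus strand) for *MKI67*. Capitals mark CCAAT, its reverse complement ATTGG, and TTTGAA.
CCNB2: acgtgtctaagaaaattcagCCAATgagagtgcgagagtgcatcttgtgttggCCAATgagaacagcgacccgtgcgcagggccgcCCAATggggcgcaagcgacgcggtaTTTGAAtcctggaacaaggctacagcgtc
PLK1: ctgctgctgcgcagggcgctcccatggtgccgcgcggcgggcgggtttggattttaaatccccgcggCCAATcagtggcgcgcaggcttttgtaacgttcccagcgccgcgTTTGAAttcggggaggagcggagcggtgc
MKI67: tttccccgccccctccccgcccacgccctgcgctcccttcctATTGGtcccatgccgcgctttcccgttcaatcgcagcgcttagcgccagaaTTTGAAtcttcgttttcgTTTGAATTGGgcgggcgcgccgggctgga
A TTTGAA begins 29 bases before the start in each of the 3, and CCAAT boxes lie upstream of it at 54, 87 and 120 bases in *CCNB2* and at 73 bases in *PLK1*. In *MKI67* the final TTTGAA overlaps an ATTGG that begins 24 bases before the start, and a further TTTGAA and ATTGG begin at 47 and 98 bases. These genes were expressed at 22.3 ± 1.68 FPKM (*CCNB2*, a mitotic cyclin), 38.9 ± 2.44 FPKM (*PLK1*, a mitotic kinase) and 14.9 ± 3.38 FPKM (*MKI67*).

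Markers of endothelial, stellate, immune and erythroid cells were mostly not detected, with few exceptions, while most biliary and progenitor markers were detected. Biliary and progenitor markers were detected in 10 of 15 cases: *SPP1*, encoding osteopontin, had 1048, 895 and 873 FPKM, the keratins *KRT18*, *KRT8* and *KRT19* had 156 ± 2.5, 120.3 ± 0.868 and 80.4 ± 5.17 FPKM, and the adhesion molecule *EPCAM* had 72.1 ± 1.94 FPKM, while *CFTR* was listed at 0 and *KRT7* was at 0.121 ± 0.0319 FPKM. Endothelial markers were detected in 1 of 12 cases (*ENG*, a TGF-β co-receptor, at 2.68 ± 0.148 FPKM), with *KDR*, *TEK*, *CLEC4G*, *CLEC4M* and *FCN2* listed at 0; their summed level was 3.47 to 3.79 FPKM. Stellate and fibroblast markers were detected in 1 of 13 cases, the smooth muscle actin *ACTA2* at 15.6 ± 1.26 FPKM, with *COL1A2* and *LRAT* listed at 0, and summed to 16.1 to 18.3 FPKM. None of 12 erythroid markers was detected, with *HBB*, *ALAS2*, *KLF1* and *SLC4A1* listed at 0. Of 16 immune markers 5 were detected, and 1 of them made up nearly all of the sum of 522 to 702 FPKM: *LYZ*, encoding lysozyme, had 489, 673 and 669.7 FPKM, rank 47. Of the 5 detected immune markers, 3 reached 10 FPKM in every library, and those other than *LYZ* are not named here. Listed at 0 in every library were 7 of the 16: the pan-leukocyte gene *PTPRC*, *MARCO*, *C1QA* and *C1QB*, expressed by macrophages, and *HLA-DRA*, *CD3E* and *MS4A1*. The list holds further macrophage markers, so these zeros do not describe macrophage genes as a whole.

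The spread between libraries was small for most genes. Over the 10691 detected genes the median coefficient of variation (CV, of counts scaled to library size, CPM) was 7.12%, and 72.7% of genes had their highest and lowest library within 1.25-fold, whereas 3.74% differed by 2-fold or more. It was lower at higher levels up to 100 FPKM, from a median of 9.54% at 1 to 3 FPKM to 4.92% at 30 to 100 FPKM, and was 5.32% above 100 FPKM. The common biological coefficient of variation estimated by edgeR, over 17346 genes, was 21.6%. By list, the median CV of detected members was 2.03% for the albumin family, 5.71% for G2 and mitosis, 6% for S phase and 16.4% for immediate early genes. The last list holds genes that respond within minutes to serum or handling. *FOS* had 1.85, 1.37 and 0.638 FPKM and *EGR1* 9.4, 6.84 and 5.78 FPKM, both highest in DMSO 1 and lowest in DMSO 3, while *JUN* (12.8, 11.8 and 12.2 FPKM) kept a narrow range. *IER3* and *JUND* were the highest of that list, at 45.2 ± 4.53 and 41.8 ± 4.04 FPKM. The 14 reference genes often used for normalisation had a median level of 40.1 FPKM. Their median CV was 7.75%, beside 7.12% for all detected genes and 4.92% for detected genes at 30 to 100 FPKM. Among the reference genes *TFRC*, the transferrin receptor, ranged from 24.9 FPKM in DMSO 3 to 45.8 FPKM in DMSO 2.

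**Figure D5:**
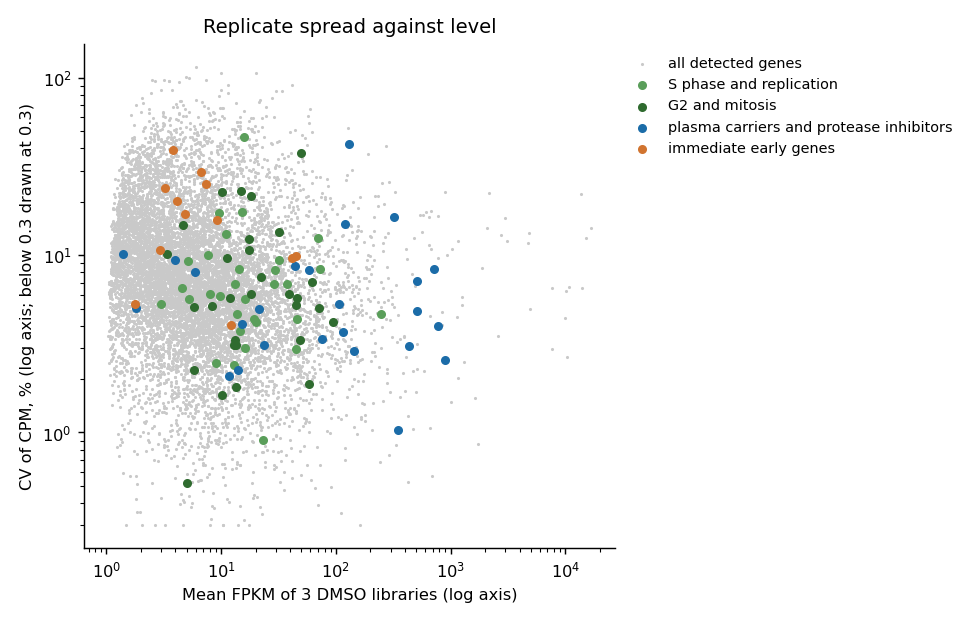
CV of CPM over the 3 DMSO libraries (percent, log axis) against mean FPKM (log axis) for every detected gene in grey, with members of 4 lists in colour. Immediate early genes lie mostly above the 7.12% median of all detected genes, and S phase and mitotic genes mostly around or below it.

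Single libraries stood apart for some well-expressed genes. Of 3189 nuclear coding genes with a mean of at least 10 FPKM, 100 (3.14%) differed by 2-fold or more between libraries, and in 83 of these the other libraries lay within 1.25-fold of each other. DMSO 1 was the lone library for 22 genes, DMSO 2 for 31 and DMSO 3 for 30, and it was the lower one in 58. The highest CV among genes of this level was 107% for *TOMM6*, a subunit of the mitochondrial import pore, with 11, 4.64 and 44.8 FPKM. An overlapping gene on the same strand, AL365205, had 141, 130 and 105 CPM, lowest where *TOMM6* was highest. *PDXP*, a vitamin B6 phosphatase, had 3.37, 4.36 and 22.4 FPKM. In CPM, *PDXP* had 8.83, 11.5 and 58.7, the overlapping Z83844 had 55.7, 51.5 and 8.64, and their sum differed by 1.07-fold. A same-strand overlapping gene was present for 41 of the 100, a share that was not set beside that of all 3189 genes. Adding the CPM of the overlapping genes brought 8 of the 41 within 1.5-fold. For *HNRNPH2* the sum still differed by 3.35-fold. The part that read assignment plays in these differences was not tested. *DAG1* (dystroglycan; 36.1, 3.77 and 25.9 FPKM) and *HNRNPH2*, an RNA-binding protein (34.7, 5.21 and 34.5 FPKM), were low in DMSO 2, while *GPX1*, glutathione peroxidase, was high in DMSO 1 (59, 16.9 and 13.6 FPKM). At the other end *GLUD1* had the lowest CV, 0.061%, followed by the mitochondrial ribosomal gene *MRPS12* at 0.179% and the ubiquitin-conjugating enzyme *UBE2T* at 0.199%.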

How the data were processed

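Total RNA of HepG2 cells was sequenced, and the 3 libraries labelled 0.1% DMSO were analysed. The submitters' processing notes name, without roles, DESeq2, edgeR, the build hg38, StringTie 1.3.4d, HISAT2 2.0.4 and cutadapt 1.9. None of annotation release, exposure time or strand setting is given in the sources used here. The authors deposited 1 estimated count per gene and library (expected count, as whole numbers), with no further step recorded. In the DMSO libraries 3572 values equal 4 and only 1312 equal 3, so a count may not be 1 fragment, and no detection floor was derived. The deposited FPKM, which the authors scaled to length and library size, is 1e-04 in place of 0 and was read as 0 there. Count divided by FPKM followed the union of a gene's annotated exons within 0.05 log2 for 82.3% of 11921 genes, so genes with many isoforms are divided by a long length.

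Detection, ranks and list counts used FPKM, with at least 1 FPKM in every library as the limit. The CV used CPM, counts scaled to library size. Totals were 87122734 to 107538450 counts; counting precision was not derived from them, and errors are the spread between libraries. edgeR 4.0.16 estimated the dispersion with an intercept only after filterByExpr (minimum count 10, minimum total 15) and TMM. It was tested on simulated counts with 1 dispersion for all genes. Those lacked the excess of values equal to 4 seen here, so that test does not cover this feature of the counts. DESeq2 1.42.0 size factors, other limits, other length definitions and left-out libraries were alternatives. No groups were compared and no p-value was computed. Named genes were the 30 highest, the 5 markers, the 4 highest and all members at 0 of each of 26 lists, gene pairs (11 of 15 described) and the genes of extreme CV; some of these are not reported here, and others named were chosen after their values were seen. Members and lists were chosen with earlier results of these data known. The lists hold 578 genes, of which 577 were found. Promoters came from RefSeq (GRCh38.p14, 22114 used). Coordinates count from 1. Python 3.11.15 and R 4.3.3 were used.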

Additional observations from a re-analysis of the deposited data

How the results depend on the processing

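Of 56 results recomputed under 288 alternatives in all, 232 alternatives left the value within a set limit and 56 moved it further. The limit was the SD between libraries for levels, ranks, ratios and the share of the highest genes. It was 1.5 times for counts and measures of spread, and a binomial interval for motif shares. Leaving out 1 library cannot move a mean level or ratio past the SD, so those alternatives stayed within it by construction. A change of unit also moves a level by construction. A reversal was possible for gene pairs only, and none was found. Detected genes numbered 5490 at a limit of 5 FPKM and 20480 when any count above 0 in every library sufficed, against 10691. The 30 highest genes held 18.6% without mitochondrially encoded genes and 21.5% when counts replaced FPKM. CPM, counts scaled to library size, which do not correct for length, gave ranks of 12 for *ALB*, 16 for *AFP*, 52 for *APOA1*, 2635 for *HNF4A* and 632 for *MKI67*. The longest annotated transcript as length, an alternative chosen after the data were seen, gave ranks of 18, 34, 4732 and 3256 for *ALB*, *APOA1*, *HNF4A* and *MKI67*, and widened *ALB* over *AFP* to 0.54 on the log2 scale. Leaving out a library in turn gave *APOA1* a rank of 26 to 27. The common biological coefficient of variation was 37.6% without a filter on low counts, and 20.9% to 22.3% when a library was left out. No paired analysis was possible because only 1 group was described. Ranks and ratios between genes therefore depend on the length used. How reads of near-identical or overlapping genes were assigned was not varied.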

Other observations

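Gene families that every cell uses were nearly complete. Their lowest detected member had a mean of 3.01 FPKM, so they cannot show how a listed 0 of a scarce gene is to be read. Cytosolic ribosomal proteins were detected in 81 of 84 cases, with a median of 134 FPKM; the others were *RPL10L*, *RPL39L* and *RPL3L*, variants known from testis or muscle. Proteasome subunits were detected in 36 of 39 cases, and *PSMB9*, an immunoproteasome subunit, was among the exceptions. All 37 nuclear subunits of respiratory complex I, all 12 RNA polymerase II subunits and all 17 cytosolic aminoacyl-tRNA synthetases were detected, as were 8 of 9 chaperonin subunits.

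All 37 mitochondrially encoded genes were detected. The cytochrome oxidase subunit *MT-CO2* was the highest of the 13 protein-coding ones, with 17301, 13943 and 18595 FPKM, and *MT-ND5* of complex I the lowest, with 2643, 2504 and 2692 FPKM. Long non-coding RNA genes were detected in 372 of 16857 cases (2.21%), and 24 of them reached 10 FPKM in every library. *NORAD*, which binds Pumilio proteins, was the highest with a gene name of its own, at 68.1, 76.2 and 72.9 FPKM.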
